A study of Rattus norvegicus with 16 samples.

Results

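A set of 9 genes of the blood vessel lining were followed in the retina of newborn rats raised in cyclic hyperoxia or in room air. They were taken from a list of 10 endothelial surface, junction, secreted and transcription factor genes (Adgrl4, Adgrf5, Emcn, Ets1, Esam, Egfl7, Cd34, Podxl, Pecam1 and Cdh5) by matching the gene symbol in the platform annotation, and 9 of the 10, each with 1 probe set, were among the 14324 genes tested. Pecam1 had no match and was not analysed here. The probe sets are 10819770 (Adgrl4), 10926698 (Adgrf5), 10819305 (Emcn), 10908896 (Ets1), 10909072 (Esam), 10834447 (Egfl7), 10766869 (Cd34), 10861662 (Podxl) and 10809048 (Cdh5).

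The 8 groups of 2 arrays were SD (Sprague Dawley) rats in cyclic hyperoxia and in room air on post-natal day 6, F344 (Fischer) rats in both conditions on day 6, and the same 4 combinations on day 5. Hyperoxia alternated 80% with 21% oxygen in turns of 24 h, began within 12 h of birth and was given to litters with their mothers, and the controls were of the same age. SD rats are the strain known to be susceptible to oxygen-induced retinopathy and F344 rats the resistant one, and no transgene or drug was used. Each array carried RNA pooled from individual rats, with 3 rats and 2 litters named by the submitters in words that fit either a single pool or the pools of a group together, and the labels do not say which turn of oxygen came before each collection. Nothing in the labels names a batch or a scan date, and the p-values measure the spread between the pooled samples, which may hold little of the spread between animals.

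Retinal vessels grow outward from the optic nerve head after birth in the rat, led by endothelial cells that follow vascular endothelial growth factor released by astrocytes and neurons short of oxygen. High oxygen lowers that signal and stops or prunes immature capillaries, and a return to lower oxygen raises it again. The genes followed here mark the endothelium at its surface (the adhesion G protein-coupled receptors Adgrl4 and Adgrf5 and the sialomucins Emcn, Cd34 and Podxl), at its junctions (Cdh5, which is VE-cadherin, and Esam), in its secreted products (Egfl7) and in its nucleus (the transcription factor Ets1).

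Upstream sequences of 250 bases were at hand for 6 of the 9 genes, from RefSeq on GRCr8, and 4 are shown: those of Adgrl4, Adgrf5 and Emcn, the surface genes whose levels moved with oxygen, and that of Podxl, which differed from them in level and pattern. The windows of Adgrf5 and Egfl7 lie inside the gene's RefSeq span, before an internal transcript start, and those of Emcn and Adgrl4 run a little way into it. Capitals mark GGAA on either strand (TTCC on the other), the core letters bound by ETS factors such as Ets1. The Adgrl4 window lies at chr2:243014689-243014938 on the plus strand, that of Emcn at chr2:228564289-228564538 on the plus strand, that of Adgrf5 at chr9:25121238-25121487 on the minus strand and that of Podxl at chr4:61149132-61149381 on the minus strand.
Adgrl4: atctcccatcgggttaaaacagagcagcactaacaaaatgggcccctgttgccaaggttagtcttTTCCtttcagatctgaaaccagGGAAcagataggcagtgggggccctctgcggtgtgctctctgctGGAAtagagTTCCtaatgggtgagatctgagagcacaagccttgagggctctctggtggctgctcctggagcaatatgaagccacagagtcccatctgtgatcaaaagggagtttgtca
Emcn: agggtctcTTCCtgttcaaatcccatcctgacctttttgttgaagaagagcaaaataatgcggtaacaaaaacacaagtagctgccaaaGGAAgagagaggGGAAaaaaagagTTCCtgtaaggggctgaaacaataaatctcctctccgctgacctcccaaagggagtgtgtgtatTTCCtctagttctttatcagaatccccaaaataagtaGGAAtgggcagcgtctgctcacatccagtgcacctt
Adgrf5: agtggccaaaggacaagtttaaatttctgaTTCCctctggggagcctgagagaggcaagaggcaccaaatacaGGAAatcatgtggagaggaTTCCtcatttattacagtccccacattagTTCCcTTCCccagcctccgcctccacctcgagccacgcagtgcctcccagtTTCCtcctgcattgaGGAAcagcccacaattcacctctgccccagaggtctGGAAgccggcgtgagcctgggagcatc
Podxl: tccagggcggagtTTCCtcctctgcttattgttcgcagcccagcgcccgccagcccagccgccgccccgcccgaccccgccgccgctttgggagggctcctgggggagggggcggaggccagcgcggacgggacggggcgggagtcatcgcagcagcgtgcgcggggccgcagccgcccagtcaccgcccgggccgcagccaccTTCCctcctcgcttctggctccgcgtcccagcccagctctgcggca
The core GGAA was found 8 times in the Adgrf5 window, 6 times in that of Emcn, 4 times in that of Adgrl4, 3 times in that of Egfl7, 2 times in that of Podxl and 1 time in that of Cd34. It is a short string, present in 93.0% of 21851 such windows of protein-coding genes with a median of 3 matches. The longer string CAGGAA, which contains GGAA, was found in Emcn, Egfl7 and Adgrf5 and in 24.1% of all windows. CCGGAA, which also contains it, was in none of the 6 and in 15.1% of all windows. The hypoxia response core ACGTG lay in the Cd34 window (17.2% of all windows), and GCGTG in those of Podxl and Adgrf5 (30.6%). Podxl had the most G and C, 76.4%, against 54.8% in Adgrf5, 51.2% in Adgrl4 and 44.4% in Emcn, where the median window had 54.0%. All motifs were searched on both strands, and a match describes letters and no bound site.

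All values below are deposited log2 expression values, whose array medians lay between 5.45 and 5.52. Both arrays of a group correlated at 0.987 to 0.997 across genes, lowest in F344 hyperoxia retinae on day 6, where 70 genes stood over 2-fold apart between the arrays (0 to 34 in the other groups). Replicate 2 of F344 room air on day 5 stood above replicate 1 in 8 of the 9 genes, with a mean of 5.62 against 5.26 for replicate 1, while 49.1% of all genes were higher in replicate 2. Its level over 14 pericyte and smooth muscle genes was also the higher one, 5.19 against 4.95. In SD room air, replicate 2 was also the higher one in 8 of 9 genes on day 6 (mean 5.73 against 5.56). On day 5 it was higher in 7 of 9 (5.60 against 5.44), each with 51.4% of all genes. In F344 room air on day 6 it was higher in 6 of 9 genes, with a mean of 5.54 against 5.57. Under hyperoxia it was higher in 2 to 5 of 9. For the genes called on day 5 and for the differences between days, values without replicate 2 of F344 room air on day 5 are given below.

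Apart from Podxl, the genes were read close to the floor of the array. Podxl, an anionic sialomucin of vessels that is also made by podocytes and neurons, averaged 8.80 over the 16 arrays, 3.35 above the lowest array median, at the 87.0th percentile of all genes. The other 8 averaged between 4.62 (Cdh5) and 5.36 (Esam), below the lowest array median by 0.83 for Cdh5, 0.79 for Emcn, 0.67 for Adgrf5, 0.61 for Egfl7, 0.55 for Cd34, 0.29 for Adgrl4, 0.13 for Ets1 and 0.10 for Esam. As a gauge of probe background, 36 genes of tissues other than retina had a median of 4.37 and a highest value of 6.29 (Prm1, a sperm protamine). Adgrl4 exceeded 32 of the 36, Ets1 and Esam 34 each, Cd34 30, Egfl7 29, Adgrf5 28, Emcn 25, Cdh5 24 and Podxl all 36. Only 4 of the 9 genes (Adgrl4, Ets1, Esam and Podxl) reached the lowest array median of 5.45 in any group mean, and the other 5 stayed under it in every group. The probe sets differ in affinity, so this order ranks probe readings and not transcript numbers. Close to background the log2 scale compresses changes, and 1 array can move them, so the sizes are uncertain and linear folds are not given.

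**Figure D1:**
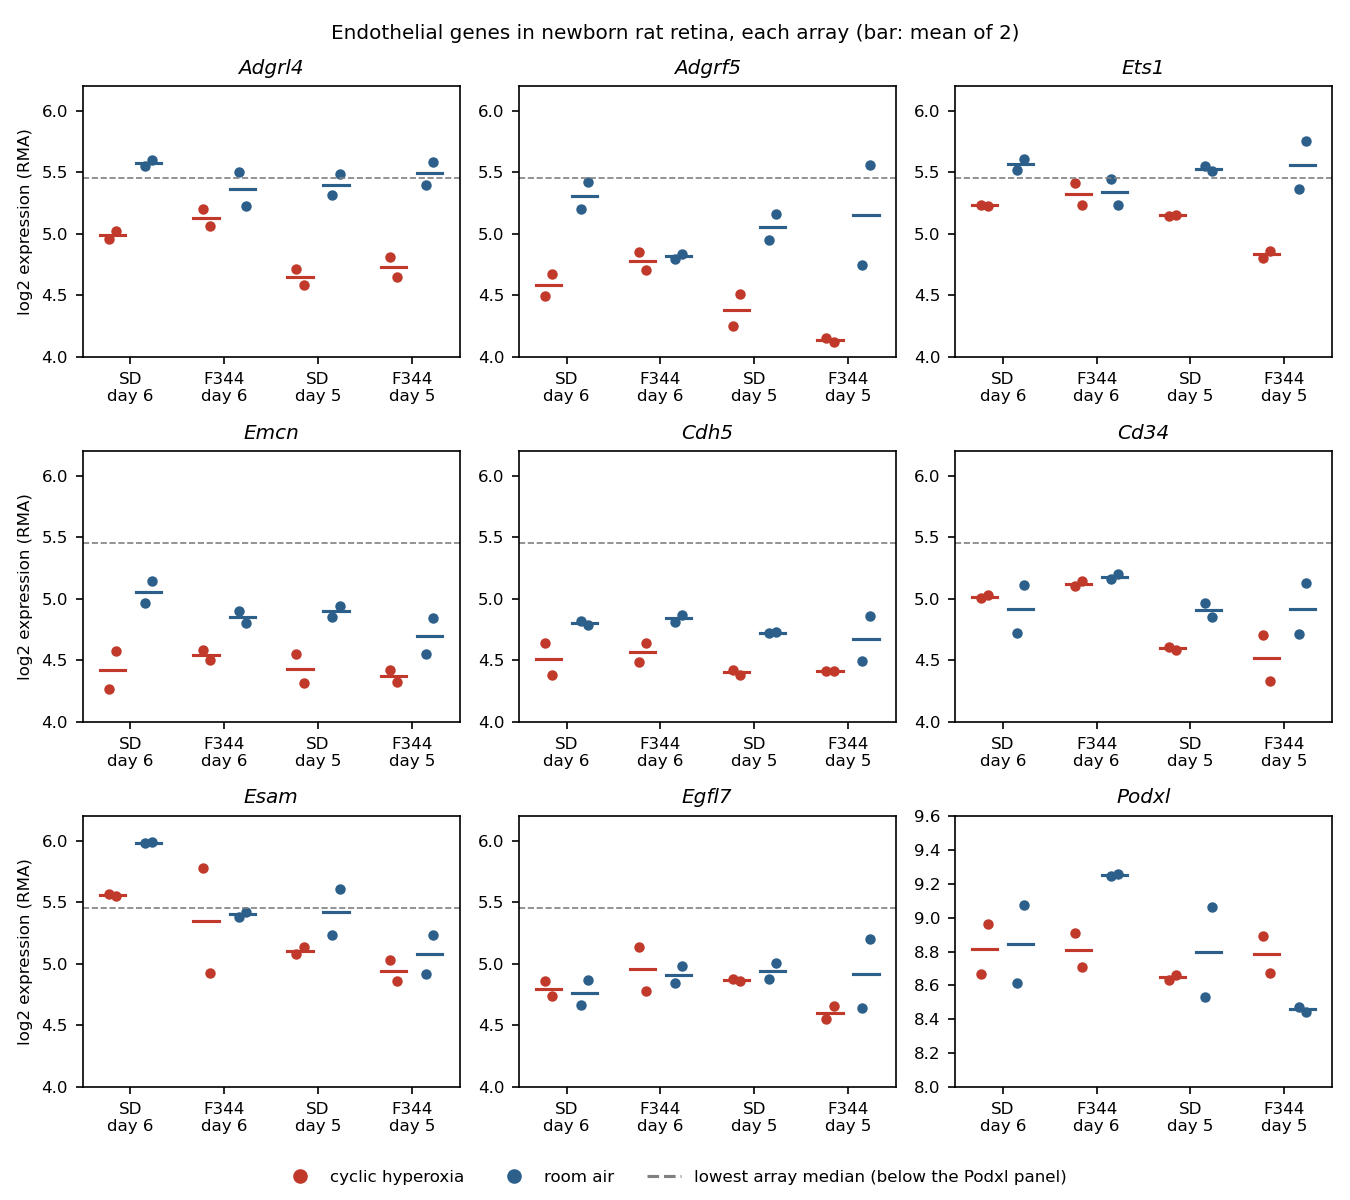
Log2 expression (vertical axis) of the 9 genes on each of the 16 arrays, as points, with a bar at the mean of 2 arrays, for cyclic hyperoxia (red) and room air (blue) in each strain on each day; the dashed line is the lowest array median, 5.45, and the Podxl panel has its own higher axis. Adgrl4 lies lower under hyperoxia than in room air without overlap in all 4 pairs of groups. The group means of Podxl run from 8.46 in F344 room air on day 5 to 9.25 in F344 room air on day 6.

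On day 5 Adgrl4, Adgrf5 and Ets1 were lower under hyperoxia than in room air when both strains were averaged, by 0.75 ± 0.09, 0.84 ± 0.14 and 0.55 ± 0.09 on the log2 scale (SE, n = 2 arrays in each of 4 groups). The adjusted p by limma was 0.000526 for Adgrl4, 0.0131 for Adgrf5 and 0.0141 for Ets1. These 3 of 9 genes compare with 0.209% of all genes called lower, and 0 of the 14324 genes tested were called higher (779 at an unadjusted p under 0.05). In RNA of whole retina, fewer endothelial cells and less of a transcript per cell cannot be told apart.

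Adgrl4, also known as ELTD1 and a receptor linked to sprouting in vessels, gave the tightest difference. It stood at 4.71 and 4.59 in SD hyperoxia retinae, against 5.32 and 5.48 in SD room air retinae. In F344 retinae the arrays read 4.81 and 4.65 under hyperoxia, against 5.40 and 5.59 in room air. No hyperoxia array reached the lowest room air array in either strain, and the change was -0.75 ± 0.13 in SD (adjusted p = 0.0365) and -0.76 ± 0.13 in F344 (adjusted p = 0.0217). The mean over strains kept its call with any 1 of the 16 arrays left out, between -0.80 and -0.71 (-0.71 without replicate 2 of F344 room air). The call within SD remained in 6 of those 16 settings and was lost when every probe set was tested (adjusted p = 0.0765) or only the day 5 arrays were fitted (0.0703). The call within F344 remained in 10 of the 16 settings, not without replicate 2 of F344 room air (-0.67, adjusted p = 0.126), and was lost with only the day 5 arrays (0.0725).

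Adgrf5, also known as GPR116 and known from the endothelium and the lung, read 4.25 and 4.51 in SD hyperoxia retinae, against 4.95 and 5.16 in SD room air retinae. In F344 it read 4.16 and 4.12 under hyperoxia, against 4.75 and 5.56 in room air. Hyperoxia arrays were the lower ones in both strains without overlap, and the room air pair of F344 was the widest of the gene. The change was -0.67 ± 0.19 in SD (adjusted p = 0.391) and -1.01 ± 0.19 in F344 (adjusted p = 0.0626), so that neither strain passed alone. Without replicate 2 of F344 room air the F344 change was -0.61, and the mean over strains was -0.64 (adjusted p = 0.0168). The call for the mean over strains was lost without either F344 hyperoxia array, without replicate 1 of SD hyperoxia or without replicate 2 of SD room air, with an adjusted p of up to 0.122, and when only the arrays of day 5 were fitted (0.0695).

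Ets1, the ETS family transcription factor of the list, which acts in vessel growth, had 5.14 and 5.15 in SD hyperoxia retinae, against 5.55 and 5.51 in SD room air retinae. Its values were 4.80 and 4.86 in F344 hyperoxia retinae, against 5.37 and 5.76 in F344 room air retinae. The groups did not overlap in either strain, and the hyperoxia level was the lower one in F344. The change was -0.38 ± 0.13 in SD (adjusted p = 0.442) and -0.73 ± 0.13 in F344 (adjusted p = 0.0431). The F344 change was -0.53 and not called without replicate 2 of F344 room air, and -0.92 without replicate 1, and it was called in 3 of the 9 other settings (adjusted p of up to 0.0992). For the mean over strains the value was -0.46 without replicate 2 of F344 room air (adjusted p = 0.0457). For the mean over strains the call was lost without any 1 of the 6 day 5 arrays of SD hyperoxia, SD room air and F344 hyperoxia, with an adjusted p of up to 0.0987.

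The sialomucins and junction genes were not called on day 5. Emcn (endomucin of capillaries and veins) differed by -0.39 over both strains (adjusted p = 0.155), Cd34 by -0.35 (0.251), Cdh5 by -0.29 (0.249), Esam by -0.22 (0.586) and Egfl7 by -0.20 (0.545). Podxl differed by 0.09 (adjusted p = 0.834). Emcn read 4.55 and 4.32 in SD hyperoxia retinae, against 4.85 and 4.95 in SD room air retinae, without overlap. Cdh5 read 4.42 and 4.38 in SD hyperoxia retinae, against 4.72 and 4.73 in SD room air retinae, also without overlap. At an unadjusted p under 0.05, 6 of the 9 genes were lower, against 5.78% of all genes, and the median change of the 9 was -0.35, against 0.01 over all genes.

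Within each strain the count of separated genes was high and the count of calls low. In SD on day 5 the hyperoxia arrays lay below the room air arrays without overlap in 8 of 9 genes, all but Podxl, against 21.5% of all genes, while 1 of 9 was called lower against 0.0628%. In F344 on day 5 the same held for 6 of 9 genes (Adgrl4, Adgrf5, Ets1, Emcn, Cdh5 and Cd34), against 20.3% of all genes, with 2 of 9 called lower against 0.126%. Egfl7 separated narrowly in SD, with 4.87 and 4.86 under hyperoxia against 4.88 and 5.01 in room air (-0.08, adjusted p = 0.915). Cd34 separated narrowly in F344, with 4.70 and 4.34 under hyperoxia against 4.71 and 5.12 in room air. Esam and Egfl7 overlapped there, and Podxl ran the other way, with 8.89 and 8.67 in F344 hyperoxia retinae, against 8.47 and 8.45 in F344 room air retinae (0.33, adjusted p = 0.647).

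On day 6 the genes called over both strains were Emcn and Adgrl4, lower under hyperoxia by 0.47 ± 0.10 and 0.41 ± 0.09 on the log2 scale (adjusted p = 0.0131 and 0.0161, limma). These 2 of 9 genes compare with 2.73% of all genes called lower, a larger background than on day 5. Cdh5 differed by -0.29 (adjusted p = 0.0696), Adgrf5 by -0.38 (0.102), Podxl by -0.24 (0.26), Esam by -0.24 (0.337) and Ets1 by -0.17 (0.265). Cd34 (0.02) and Egfl7 (0.04) lay near 0. At an unadjusted p under 0.05, 4 of 9 were lower, against 13.1% of all genes, and the median change was -0.24, against -0.01 over all genes. Both calls were lost without replicate 1 of F344 room air or without replicate 1 of SD hyperoxia, with an adjusted p of up to 0.0943 for Adgrl4 and 0.0935 for Emcn.

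The genes called within a strain on day 6 were called in SD. Emcn read 4.27 and 4.57 in SD hyperoxia retinae, against 4.97 and 5.15 in SD room air retinae (-0.64 ± 0.14, adjusted p = 0.0235). Adgrl4 read 4.96 and 5.02 in SD hyperoxia retinae, against 5.55 and 5.60 in SD room air retinae (-0.58 ± 0.13, adjusted p = 0.0233). Neither gene overlapped between the conditions. Adgrf5 read 4.50 and 4.68 in SD hyperoxia retinae, against 5.20 and 5.42 in SD room air retinae, also without overlap, and missed the threshold (-0.72, adjusted p = 0.0579). Both calls in SD were lost without any 1 of the 4 SD arrays of day 6, and with only the day 6 arrays fitted (adjusted p = 0.0736 for Adgrl4 and 0.0662 for Emcn). In all, 2 of 9 genes were called lower in SD, against 0.565% of all genes, and 6 of 9 separated lower (Adgrl4, Adgrf5, Ets1, Emcn, Cdh5 and Esam), against 24.7%.

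In F344 on day 6 none of the 9 genes was called by limma, against 0.845% of all genes called lower, and 3 were lower at an unadjusted p under 0.05, against 10.8% of all genes. Those were Podxl (-0.45, adjusted p = 0.2), Emcn (-0.31, adjusted p = 0.257) and Cdh5 (-0.28, adjusted p = 0.278). Emcn read 4.59 and 4.50 in F344 hyperoxia retinae, against 4.90 and 4.80 in F344 room air retinae, without overlap. Adgrl4 stood at 5.20 and 5.06 in F344 hyperoxia retinae, against 5.50 and 5.22 in F344 room air retinae, a separation of a few hundredths. Adgrf5 overlapped, with 4.85 and 4.70 under hyperoxia against 4.80 and 4.83 in room air. So did Esam, whose hyperoxia arrays at 5.78 and 4.92 were the widest pair of any of the 9 genes. Altogether 5 of 9 genes separated lower (Adgrl4, Emcn, Cdh5, Cd34 and Podxl), against 22% of all genes. Cd34 did so narrowly, with 5.11 and 5.14 under hyperoxia against 5.16 and 5.20 in room air (-0.06, adjusted p = 0.884).

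**Figure D2:**
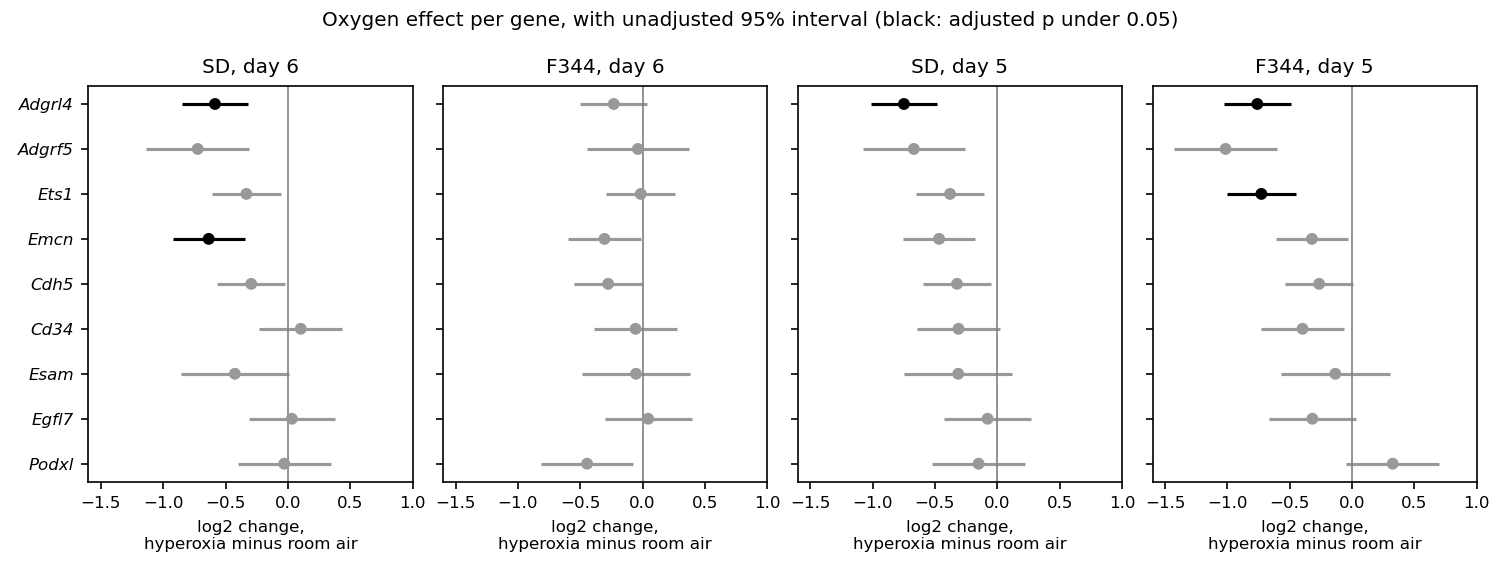
Log2 change under hyperoxia relative to room air (horizontal axis) for the 9 genes in SD and F344 on day 6 and on day 5, with unadjusted 95% intervals; black marks genes called at an adjusted p under 0.05. Adgrl4 is called in SD on day 6 and in both strains on day 5, Emcn in SD on day 6 and Ets1 in F344 on day 5.

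The strains were then compared for the size of their oxygen effect. None of the 9 genes differed by limma on day 5, when 0% of all genes did (0 of the 9, and 6.14% of all genes, at an unadjusted p under 0.05). For Adgrl4 the difference, SD minus F344, was 0.01, with a 95% interval of -0.37 to 0.39. Ets1 (0.35, interval -0.04 to 0.74) and Podxl (-0.48 ± 0.25) had the differences with the smallest p on that day. On day 6 none of the 9 was called against 0.0559% of all genes, 1 had an unadjusted p under 0.05 against 11.5%, and Adgrf5 had the largest difference, -0.69 with an interval of -1.27 to -0.10 (adjusted p = 0.326). Podxl differed by 0.42 in the other direction (interval -0.11 to 0.94, adjusted p = 0.555). The difference was -0.37 for Esam (interval -0.99 to 0.24), -0.35 for Adgrl4 (interval -0.73 to 0.02, adjusted p = 0.475), -0.33 for Emcn (interval -0.74 to 0.08) and -0.32 for Ets1 (interval -0.71 to 0.07). The strains were not shown to differ in these genes, nor to be alike. For Adgrl4 on day 5 the interval leaves out a difference as large as the effect in either strain.

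Between the days the oxygen effect was smaller in size on day 6 in F344 for 3 genes at an unadjusted p under 0.05, without a call. The difference, day 6 minus day 5, was 0.98 for Adgrf5 (interval 0.39 to 1.56, adjusted p = 0.0999), 0.71 for Ets1 (interval 0.32 to 1.10, adjusted p = 0.0771) and 0.53 for Adgrl4 (interval 0.15 to 0.91, adjusted p = 0.164). For Podxl it had the other sign, -0.77 (interval -1.30 to -0.25, adjusted p = 0.141). The day 5 side of these differences includes the high F344 room air array, replicate 2. Without it they were 0.57 for Adgrf5, 0.52 for Ets1, 0.43 for Adgrl4 and -0.76 for Podxl, with adjusted p of 0.2, 0.173, 0.337 and 0.22. None of the 9 was called with all arrays, against 1.02% of all genes, and the 3 at an unadjusted p under 0.05 with a difference above 0 compare with 5.42% of all genes. In SD none was called either, against 0.112% of all genes, nor had an unadjusted p under 0.05, against 3.78%, and the corresponding values were -0.05 for Adgrf5, 0.05 for Ets1 and 0.16 for Adgrl4.

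Under hyperoxia itself, Cd34 and Adgrl4 were higher on day 6 than on day 5. Cd34, a sialomucin of endothelial and progenitor cells, read 5.00 and 5.03 in SD on day 6, against 4.61 and 4.59 on day 5. In F344 it read 5.11 and 5.14 on day 6, against 4.70 and 4.34 on day 5. Every day 6 array was above every day 5 array, and the change over both strains was 0.51 ± 0.11 (adjusted p = 0.0126). Adgrl4 rose by 0.37 ± 0.09 (adjusted p = 0.0242) and also did not overlap between the days, and neither did Ets1 (0.29, adjusted p = 0.0941). In all, 3 of 9 genes separated higher, against 3.83% of all genes. The 2 of 9 genes called compare with 2.1% of all genes called higher. All 9 changes were above 0, from 0.08 for Emcn to 0.51 for Cd34, whereas 48.7% of all genes were below 0. In room air 6 of 9 were above 0, with 0.13 for Cd34 and 0.02 for Adgrl4. The mean oxygen effect over both strains differed between the days by 0.38 for Cd34 (adjusted p = 0.511) and 0.35 for Adgrl4 (0.433). There 0 of 9 were called, against 0.182% of all genes. At an unadjusted p under 0.05, 4 of 9 were higher, against 4.06%. A rise particular to hyperoxia was thus not shown. Leaving out replicate 2 of F344 or of SD hyperoxia on day 5, or replicate 1 of SD hyperoxia on day 6, ended the Cd34 call, and for Adgrl4 the same was true of either SD hyperoxia array on either day and of replicate 2 of F344 hyperoxia on day 5.

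In room air neither day nor strain moved a gene past the threshold. Over both strains, day 6 minus day 5, the largest changes were 0.44 for Esam (adjusted p = 0.124) and 0.42 for Podxl (adjusted p = 0.0834), with 0 of 9 called against 3% of all genes and 2 of 9 at an unadjusted p under 0.05 against 15.2%. SD minus F344, over both days, was 0.46 for Esam (adjusted p = 0.058), the immunoglobulin-like adhesion molecule of endothelial tight junctions, and 0.21 for Emcn (adjusted p = 0.214), with 0 of 9 called against 9.35% of all genes and 2 of 9 at an unadjusted p under 0.05 against 23.4%, which is near the share of all genes. Esam on day 6 read 5.98 and 5.99 in SD room air retinae, against 5.38 and 5.42 in F344 room air retinae. The Esam strain difference passed the threshold under 4 of the 9 other settings described at the end. Under hyperoxia 0 of 9 were called between strains, against 8.96% of all genes, and 0 had an unadjusted p under 0.05, against 23.3%. Esam differed by 0.19 (adjusted p = 0.491).

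The genes were then set beside other genes of the same cells and of their neighbours. Of 30 other endothelial markers measured, 4 were lower and 0 higher under hyperoxia on day 5 over both strains, with a median change of -0.12. They were Tek, the angiopoietin receptor (-0.79, adjusted p = 0.00235), Slco1c1, which carries thyroxine across brain endothelium (-1.07, adjusted p = 0.00949), Flt1, a receptor of vascular endothelial growth factor (-0.45, adjusted p = 0.0194), and Slc38a5, an amino acid transporter (-0.71, adjusted p = 0.0441). On day 6, 3 of the 30 were lower and 0 higher, with a median of -0.06: Slc38a5 (-0.94, adjusted p = 0.00325), Tek (-0.56, adjusted p = 0.0107) and Tie1, the partner receptor of Tek (-0.46, adjusted p = 0.0125). Over all genes 0.209% were called lower on day 5 and 2.73% on day 6. Not every marker of the list was lower. On day 5 Sox7, Nos3 and Notch4 were among those with a higher mean under hyperoxia in both strains. On day 6 Fli1, Tal1 and Plvap were among them. The mean level of the 30 markers ran from 4.76 to 4.84 per array under hyperoxia on day 5, against 4.94 to 5.12 in room air.

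Among relatives of the 9 genes by family, few were called. The ETS list shares Erg and Fli1 with the 30 other endothelial markers, and the junction list shares Cldn5 and Icam2 with them. None of the 13 ETS factors passed on day 5, although all 13 changes were below 0 (median -0.13), against 47.1% of all genes. Of these 13, 3 had an unadjusted p under 0.05, against 5.78% of all genes lower at that p. On day 6 Elk1 was lower (-0.48, adjusted p = 0.0329). Of 11 junction partners, none passed on day 5 (2 at an unadjusted p under 0.05, against 11.2% of all genes in either direction). Afdn (-0.38, adjusted p = 0.0206) and Magi1 (-0.31, adjusted p = 0.0317), both junction scaffolds, were lower on day 6. On that day 2.73% of all genes were called lower. None of 9 further adhesion G protein-coupled receptors passed on either day. All 9 changes were below 0 on day 6 (median -0.22), against 51.8% of all genes. Of them, 4 had an unadjusted p under 0.05, against 13.1% of all genes lower at that p. None of 6 proteins that anchor or resemble the sialomucins passed either.

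Markers of other cells in and around the vessels were read in the same contrasts. Of 14 pericyte and smooth muscle genes, 13 had a change below 0 on day 5 (median -0.17), against 47.1% of all genes. None was called (6 at an unadjusted p under 0.05, against 11.2% of all genes in either direction). Rgs5, a pericyte regulator of G protein signalling, had the smallest p (-1.28, adjusted p = 0.0658). The pericyte level per array was 4.82 to 4.90 under hyperoxia on day 5, against 4.95 to 5.19 in room air, and on day 6 the ranges met, 4.99 to 5.06 under hyperoxia against 5.00 to 5.17 in room air. Platelet and lymphocyte genes overlapped on day 5, 4.96 to 5.04 under hyperoxia against 4.91 to 5.04 in room air, with 0 of 10 called on either day. Of 16 microglia and macrophage genes, none was called on day 5, and Aif1 (0.29, adjusted p = 0.0373) and C1qa (0.53, adjusted p = 0.017) were higher on day 6. On that day 4.01% of all genes were called higher. Of 7 erythroid genes, 8 astrocyte genes and 10 pigment epithelium and choroid genes, none was called over both strains on either day. Within F344 on day 5, where Adgrl4 and Ets1 were called, the erythroid gene Hbb (a beta globin) was lower, with a mean of 6.32 under hyperoxia against 7.51 in room air (-1.19, adjusted p = 0.0152), the 1 of 7 erythroid genes called there. In SD on day 5 the Hbb means went the other way, 7.10 under hyperoxia against 6.92 in room air. Whether a change in cell mixture takes part in the endothelial differences was not tested.

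Genes known to respond to low oxygen were lower under hyperoxia on day 5 and higher on day 6. Of 20 hypoxia-responsive genes, 10 were lower and 0 higher on day 5 (median -0.73), including the oxygen sensor Egln3 (-1.28, adjusted p = 2.97e-05) and the vessel growth factor Vegfa (-0.92, adjusted p = 0.00013). On day 6, 7 of the 20 were higher and 0 lower (median 0.28), including Ak4, a mitochondrial adenylate kinase (0.64, adjusted p = 0.00514), and Egln3 (0.56, adjusted p = 0.00899), while Vegfa differed by 0.17 (adjusted p = 0.284). Over all genes 0.209% were called lower on day 5 and 4.01% higher on day 6. Over the same days the median change of the 9 endothelial genes was -0.24 on day 6 and -0.35 on day 5. The 2 days share no arrays, but they share the estimate of the spread.

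**Figure D3:**
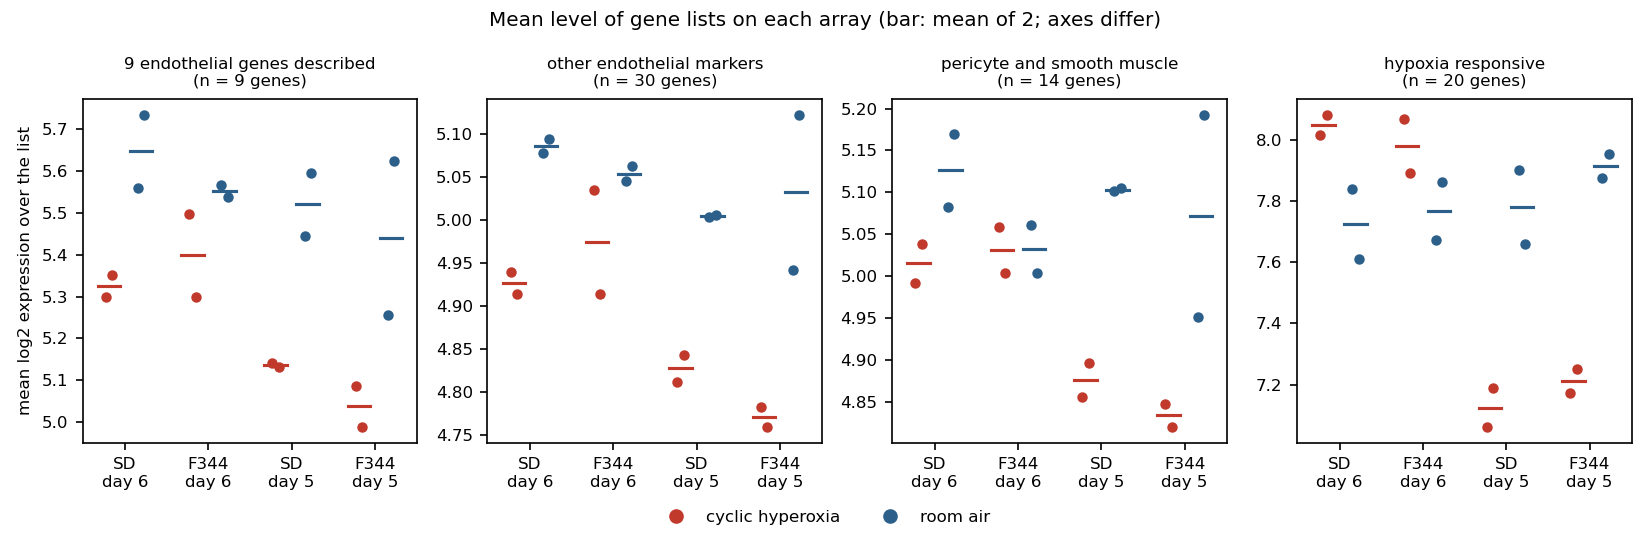
Mean log2 expression (vertical axis, a different range in each panel) of the 9 endothelial genes, 30 other endothelial markers, 14 pericyte and smooth muscle genes and 20 hypoxia-responsive genes on each array, with a bar at the mean of 2 arrays, for hyperoxia (red) and room air (blue). The 9 endothelial genes lie at 5.30 to 5.50 under hyperoxia on day 6 against 5.54 to 5.73 in room air, and at 4.99 to 5.14 under hyperoxia on day 5 against 5.26 to 5.62 in room air, whereas the hypoxia-responsive list is above room air on day 6 and below it on day 5.

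Over the 8 group means the genes followed each other to different degrees. The correlation of a gene with the mean of the other 8, each centred on its own mean, was 0.93 for Cdh5, 0.91 for Adgrl4, 0.88 for Adgrf5 and for Emcn, 0.86 for Ets1, 0.69 for Cd34, 0.66 for Esam, 0.48 for Egfl7 and 0.23 for Podxl. Over 36 pairs it ran from -0.08 (Ets1 with Podxl) to 0.97 (Adgrf5 with Ets1). Podxl, which lies well above background, was therefore the gene whose profile was least like the others. Among 8610 other genes that reached the lowest array median in some group, those most like the mean profile of the 9 were Lmln (0.95), Slco1c1 and Srgn (0.94 each), Bmp7 and Cd93 (0.93 each), and Ppip5k1, Clcn3 and Jag1 (0.92 each). Of these 8, Slco1c1 and Cd93 are among the other endothelial markers, Srgn is the proteoglycan serglycin, and Jag1 is a Notch ligand. Slco1c1 and Srgn exceeded the lowest array median only in SD room air on day 6, and Bmp7 and Cd93 only in room air groups. The mean profile is highest in room air, so these genes entered the ranking through the groups where it is high. All these correlations come from 8 points that share the arrays, and they describe likeness of pattern alone.

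The size of the change was last set against the level above background in room air. On day 6 the correlation across the 9 genes was -0.0049 (Pearson) and 0.02 (Spearman), and on day 5 it was -0.36 and -0.03. Podxl weighs on the day 5 values, since without it the 8 other genes gave 0.50 and 0.38 on that day. On day 6 they gave 0.12 and 0.10, near 0 as with Podxl. Of the 3 genes called on day 5, the room air level relative to the lowest array median was 0.09 for Ets1, -0.01 for Adgrl4 and -0.35 for Adgrf5, whereas that of Podxl was 3.18 with a change of 0.09. Genes are not independent replicates, and level and change share the room air arrays, so no p is given.

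Subtracting a background from the linear values before taking the change enlarges it within a strain by arithmetic, most for readings near the background. With the median of the 36 genes of other tissues as background, the day 5 change over both strains became -2.15 for Adgrl4 and -1.27 for Ets1. It became -1.72 for Cd34, -0.83 for Egfl7, -0.53 for Esam and 0.09 for Podxl. Adgrf5 had no such value, because its F344 hyperoxia mean lay under that background. Emcn had a hyperoxia group mean as low as 4.37, equal to that background after rounding, and Cdh5 lay just above it, so that the background chosen sets their size and none is given. With the lowest array median as background, only Podxl was left on either day. No gene with a value changed direction under any of the 3 backgrounds in these means over strains. Taking the same background from both conditions cannot reverse a difference within a strain. The unchanged directions therefore follow largely from the arithmetic and are no check on the background chosen.

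**Figure D4:**
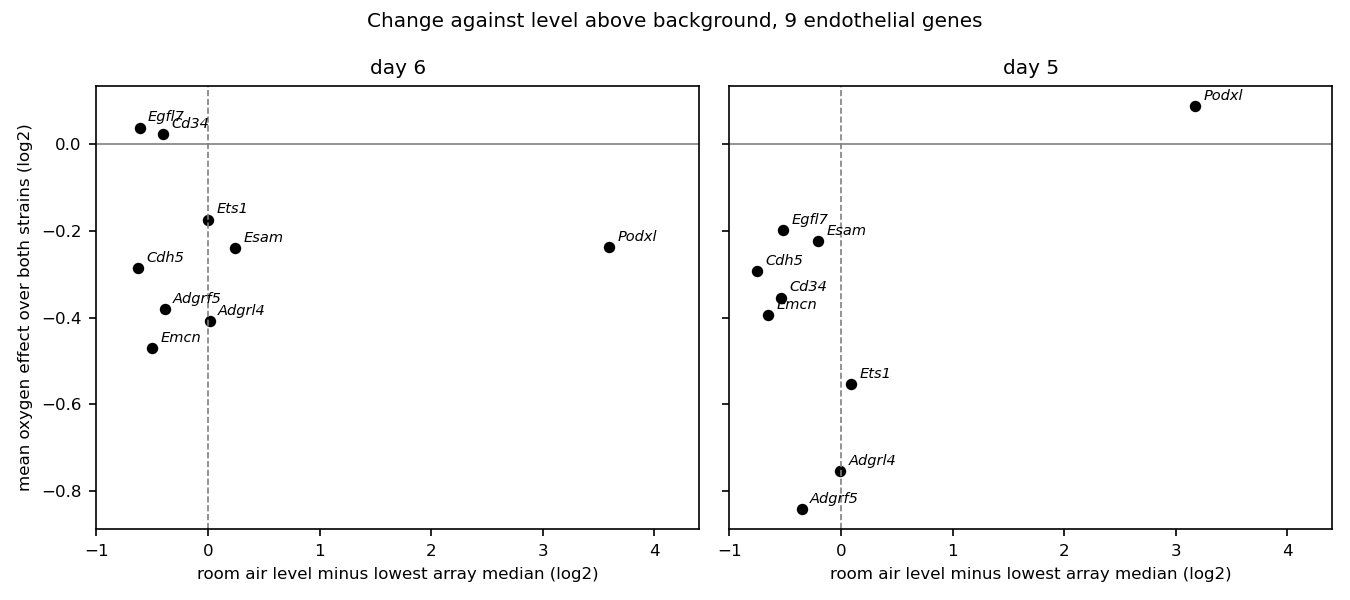
Mean log2 change under hyperoxia over both strains (vertical axis) against the room air level minus the lowest array median (horizontal axis, log2) for the 9 genes, on day 6 and day 5; the dashed line marks the lowest array median and each point is 1 gene. Podxl lies alone to the right, and the 8 other genes cluster around or left of the line, with Adgrf5, Adgrl4 and Ets1 lowest on day 5.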

How the data were processed

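Affymetrix gene arrays with 1 colour, 16 in all, were hybridised with retinal RNA. The deposited values are log2 levels for 27342 probe sets, made with Partek 6.4 and RMA per the submitters' processing notes; RMA corrects background, normalizes across arrays and summarises probes, which takes out any shift shared by most genes. The annotation gave 1 gene symbol to 15097 probe sets, several to 323 and left 11922 unlisted; for 499 genes with several probe sets the one with the highest mean was taken, leaving 14324 genes. From these values, limma 3.58.1 in R 4.3.3 fitted 1 mean per group over all 16 arrays (8 residual and 7.41 prior degrees of freedom, tested on simulated data first), with 15 contrasts, two-sided moderated tests and Benjamini-Hochberg adjustment over all genes of a contrast. Calls needed an adjusted p below 0.05. Errors after ± are standard errors. Background was taken as the lowest array median, with 36 genes of other tissues and the 25th percentile of all probe sets as alternatives. The genes described and all gene lists were chosen with earlier results of these data known. Named beside the 9 genes were, of each list, genes with the smallest p on either day or any call, and the 8 genes of most similar profile. Promoter windows came from RefSeq (GRCr8). Other settings were the replicate number as a block, array centring, quantile normalization, a filter on dim probe sets, other probe set choices, array weights, a trended prior, fewer arrays and each array left out. The number of arrays limits the precision.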

Additional observations from a re-analysis of the deposited data

Results flagged for a closer look

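The oxygen difference of Podxl in F344 retinae had opposite signs on the 2 days. On day 6 both hyperoxia arrays (8.91 and 8.71) lay below both room air arrays (9.25 and 9.26), and on day 5 both hyperoxia arrays (8.89 and 8.67) lay above both room air arrays (8.47 and 8.45). The F344 hyperoxia means were close, 8.81 on day 6 and 8.78 on day 5. It was the room air mean that differed between the days, 9.25 on day 6 and 8.46 on day 5. The difference of the oxygen effect, day 6 minus day 5, was -0.77 ± 0.25 with an adjusted p of 0.141 (limma), so it did not pass the threshold over all genes. Groups of 2 arrays are too small for a check on single outlying arrays.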

How the results depend on the processing

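Of 3273 values of single genes compared over 16 settings that left out 1 array and 9 other settings, none that was called changed direction, 70 lost and 38 gained a call, and 106 uncalled values changed sign. The number of the 9 genes called ranged, with 1 array left out, from 0 to 2 for F344 on day 5 (2 with all arrays), 0 to 1 for SD on day 5 (1), 0 to 3 for SD on day 6 (2), 1 to 3 for both strains on day 5 (3), 0 to 4 for both strains on day 6 (2) and 0 to 3 for the day difference under hyperoxia (2); for the strain differences in room air and under hyperoxia, the day difference in room air and the F344 difference between days it was 0 to 1 (0). For F344 on day 5 it was 1 with array centring, quantile normalization, the dim filter or every probe set, and 0 with only the arrays of that day. For SD on day 5 it was 0 with the replicate number as a block, with every probe set or with only that day's arrays. For SD on day 6 it was 1 with the dim filter or with only that day's arrays, and for both strains on day 6 and the day difference under hyperoxia 1 with the dim filter, which removes 5 of the 9 genes. The strain difference in room air gave 1 (Esam) with the dim filter, array weights, the trended prior or only room air arrays, and the day difference in room air gave 1 with array weights. The replicate numbers showed no pairing common to all groups: over 28 pairs of groups the correlation of deviations had a median of -0.02. It ran from -0.29 to 0.52, with 8 over 0.1, and whether some of the groups share a pairing was not tested. Among the counts of the 9 genes, apart from SD on day 5, the block moved none by over 1.5 times. Over all genes the block gave 87 in place of 146 for the F344 difference between days and 5 in place of 8 for the strain difference on day 6. With it, Adgrl4 in SD on day 5 had an adjusted p of 0.0602, Ets1 in F344 on day 5 0.0632, Adgrf5 in F344 on day 5 0.0377 and Adgrf5 in SD on day 6 0.0423. The median level of the 9 genes was -0.55 relative to the lowest array median, 0.53 above the genes of other tissues and 0.44 above the 25th percentile of probe sets. The day 5 correlation of level and change was -0.36 (Spearman -0.03) over 9 genes, -0.56 (-0.71) over the 8 with a value after subtracting the first of those last 2 backgrounds and -0.62 (-0.37) over 6 for the second, so that background and gene set changed together. Subtraction also enlarges changes most near the background, which by arithmetic pushes this correlation downward. The lower values are therefore no sign of a relation between level and change. Over all genes, with only the arrays of the day, the number called was 0 in place of 170 for F344 on day 6, 81 in place of 400 for SD on day 6 and 396 in place of 966 for both strains on day 6. Array weights gave 0, 800 and 494 for these, and 58 in place of 30 on day 5. The cause of these changes was not tested. Signals near background limit 8 of the 9 genes.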
